A study of Arabidopsis thaliana with 62 samples.

Results

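The DNA just ahead of the ribosomal RNA operon of the Arabidopsis thaliana plastid genome was followed in steps of 10 bp, from position 99001 to position 101010 of the first inverted-repeat copy. The stretch was chosen by position, and it tiles into 201 of the 12971 bins tested. The bins tested cover the plastid genome without the second inverted-repeat copy. It begins upstream of trnV (locus tag Arthct121, 100709 to 100780), a gene for a tRNA of valine, and ends next to the start of rrn16S (ArthCr086, 101012 to 102502), the gene of the small-subunit ribosomal RNA. Of the 201 bins, 170 lay upstream of trnV, 8 covered or overlapped trnV and 23 lay in the spacer between trnV and rrn16S. The gene table used here has no entry between 99001 and 100708, and the last gene before it is rps7 (ArthCp069, 97478 to 97945), which encodes a ribosomal protein. Positions are row numbers of the deposited coverage in the TAIR10 build named in the submitters' processing notes. The same sequence recurs in reverse in the second repeat copy, at 137639 to 139648, and coverage of both copies correlated at 0.9997 in part 1 and 0.9998 in part 2 over the mirrored bases. The copies cannot be told apart in coverage, so each value stands for both.

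The study measured how plastid DNA is divided between the membrane and the stroma of chloroplasts fixed with 4% formaldehyde for 4 h, with an assay its labels call SOLINA. Of 62 samples, 61 libraries in 18 groups were used, and the deposited tables form 2 parts. Part 1 held 3 membrane and 3 stroma libraries for each of 5 conditions. Seedlings aged 4 days, of Col0 (wild type), sig2-2 and sig6-1 (mutants of sigma factors), were raised on MS plates in continuous light. Leaves came from wild-type plants aged 14 days, raised on soil and collected 2 h into the light (Day) or after 24 h in darkness (Night). The protocol given for part 1 describes 5 g of rosette leaves ground in a blender and crosslinking of the isolated chloroplasts, for the seedling samples too. Part 2 held 4 membrane and 4 stroma libraries of 4-day-old seedlings of each of Col0, sig2-2, chl27 and chlm, with 3 usable stroma libraries of chlm. Its protocol describes 50 seedlings per sample, crosslinked whole and ground with a pestle. All mutants are in nuclear genes, and the genotype field of part 2 reads wild type throughout, so the mutant names were taken from the titles. The labels do not say whether replicates came from separate cultures, so p-values measure the spread between these libraries, which may be technical.

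The rRNA operon is among the most strongly transcribed units of the plastid genome, and it is read from promoters in the spacer between trnV and rrn16S. Both plastid polymerases can act there: the plastid-encoded enzyme, which needs nuclear-encoded sigma factors to find promoters, and a phage-type enzyme encoded in the nucleus. SIG2 and SIG6 are sigma factors, with SIG6 known for a broad role in seedlings and SIG2 for a role at several tRNA genes. CHL27 and CHLM are enzymes of chlorophyll synthesis.

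Mean depth per base ran from 95.4 to 1596 in part 1 and from 298.9 to 4598 in part 2. Within the region the lowest depth of any base was 7 in part 1 and 186 in part 2. In the text, relative coverage is the mean depth of a bin divided by the mean over all bins of that library, and the membrane to stroma ratio is a difference of log2 values with 0.05 added. The library mean includes the second repeat copy, and the tests leave it out. Adjusted p-values are from limma, fitted over all 12971 bins, and a bin was called at 0.05. Neighbouring bins share sequenced fragments, so a run of called bins is not that many independent observations. Bins named as highest or lowest were picked by the same ratios, so their library values describe extremes and give no further support. A stroma library stood apart in 4 groups: replicate 1 of sig2-2 and replicate 3 of Night in part 1, and replicate 2 of sig2-2 and of chl27 in part 2. Other groups of part 2 were not free of such differences. In every genotype there, stroma replicate 2 was the highest upstream of trnV. In the membrane spacer of each, replicate 2 was the highest and replicate 4 the lowest. Counts of called bins and step and turning positions that use the stroma libraries standing apart are given with and without them, except the turning position of Night. A count with a library left out that has no share of all bins beside it describes how calls varied. It does not set the region against the genome.

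Upstream of trnV, coverage formed narrow peaks and troughs, and some troughs lay at the same places in both fractions. At 99501 to 99510, relative coverage in Col0 of part 1 was 0.238, 0.237 and 0.235 in the membrane libraries and 0.382, 0.28 and 0.268 in the stroma libraries. At 99791 to 99800 it was 0.253, 0.252 and 0.253 in membrane and 0.222, 0.195 and 0.2 in stroma. Both bins lay far below the library mean in both fractions, and at the second of them the membrane libraries were above the stroma libraries. The highest upstream bin of the Col0 stroma, at 99131, had 2.52 times the library mean. That of the Col0 membrane lay elsewhere, at 99651, with 1.66 times the mean.

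The troughs were shallower in leaves collected in the light. At 99791 the Day libraries had 1.10, 0.966 and 1.19 in membrane and 0.935, 0.907 and 0.962 in stroma, close to the mean of each library. The Night libraries had 0.485, 0.399 and 0.63 in membrane and 0.178, 0.16 and 0.504 in stroma, where replicate 3 of the stroma lay above the other 2. In part 2 the same bin had 0.821 ± 0.094 (SD, n = 4) in the Col0 membrane and 0.789 ± 0.13 in the Col0 stroma. Trough depth therefore differed between parts for the same genotype and age, and material and protocol differed with it and cannot be told apart.

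The libraries that stand apart did so at these troughs. In the sig2-2 stroma of part 1, replicate 1 had 0.903 at 99791 and 0.934 at 100131, against 0.149 to 0.215 and 0.184 to 0.223 in the other 2 libraries. In the chl27 stroma, replicate 2 had 0.406 at 99791 against 0.757 to 0.92 in the other 3. In the sig2-2 stroma of part 2, replicate 2 had 0.313 against 0.597 to 0.875. The sig2-2 library of part 1 and Night stroma replicate 3 had shallower troughs than their groups, and both libraries of part 2 had deeper ones.

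**Figure D1:**
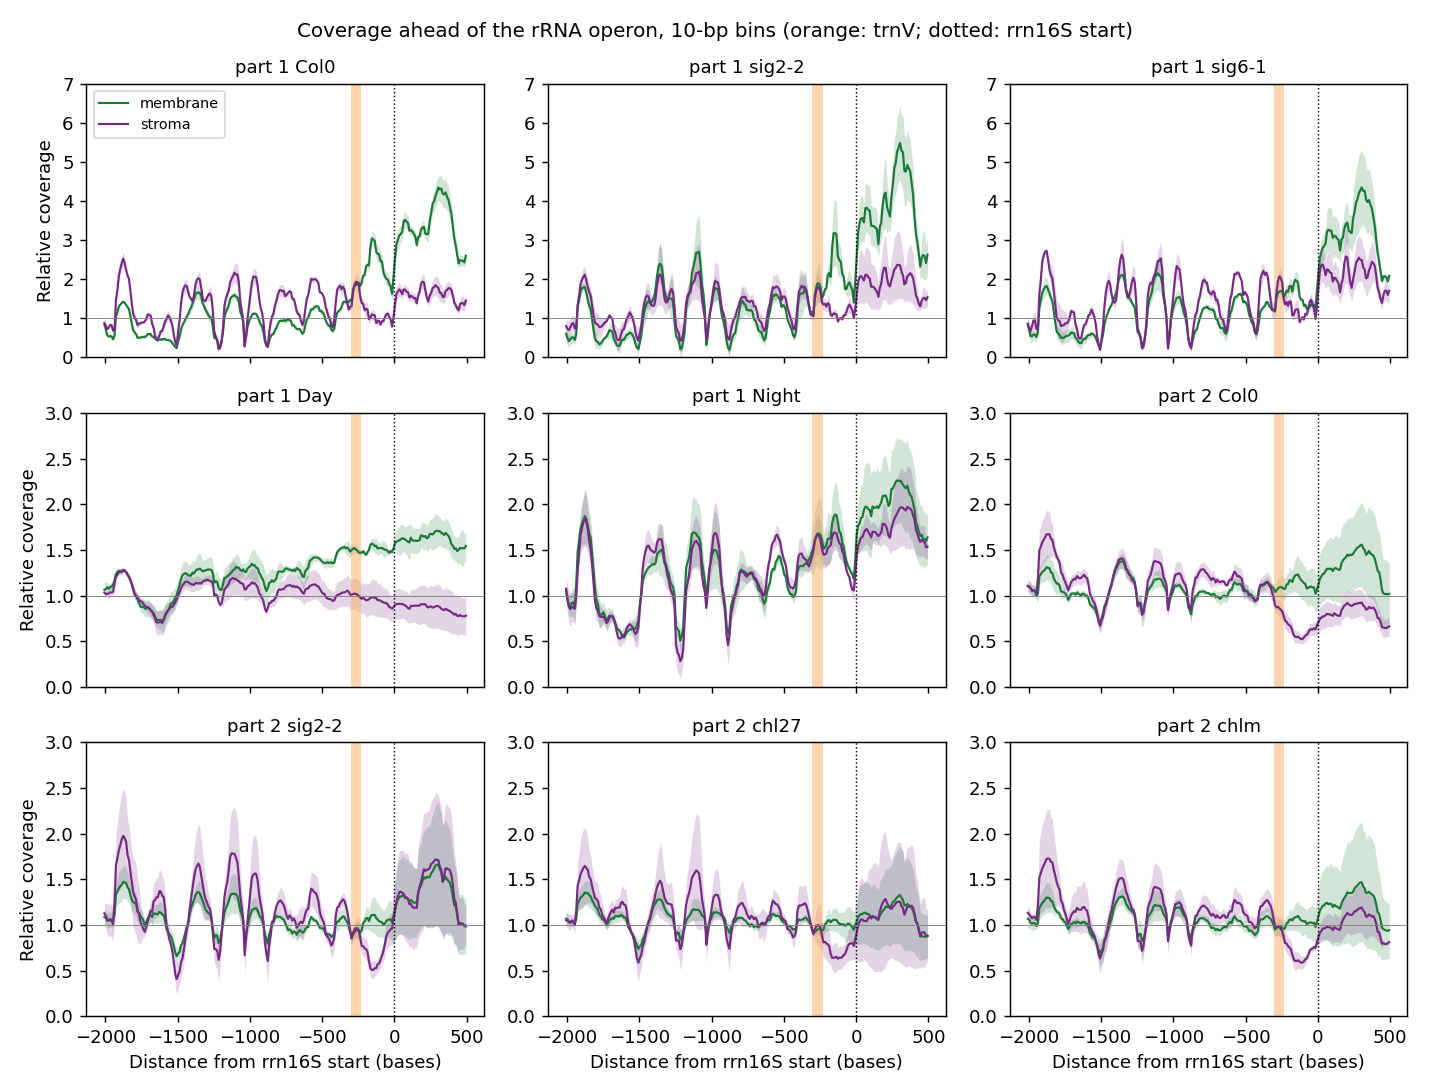
Relative coverage (bin mean over library mean, linear axis from 0) against distance from the start of rrn16S in bases, 1 panel per condition, with lines for group means and shaded bands for the SD over 3 or 4 libraries; the vertical axis reaches 7 in the 3 seedling panels of part 1 and 3 elsewhere. The membrane and stroma lines share troughs upstream of trnV (orange band) and part in the spacer before rrn16S (dotted line), except in Night.

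In Col0 seedlings of part 1, DNA upstream of trnV was lower in the membrane fraction and DNA of the spacer was higher. Mean relative coverage over the upstream bins was 0.881, 0.911 and 0.899 in the membrane libraries and 1.27, 1.37 and 1.33 in the stroma libraries. Over the spacer it was 2.32, 2.19 and 2.48 in membrane and 0.981, 1.13 and 1.04 in stroma. The groups did not overlap in either stretch, and their order was opposite. Over trnV itself the membrane libraries had 1.78, 1.70 and 1.75 and the stroma libraries 1.51, 1.80 and 1.71, which overlapped.

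By bin, 106 of the 201 passed as lower in membrane, against a background of 30.9% of all bins, and 23 passed as higher, against 11.7%. The share called lower was 52.7% of the region. The share called higher, 11.4%, was at the background, but its 23 bins formed 1 unbroken run that filled the spacer from 100781 to 101010. All 106 bins called lower lay upstream of trnV, and none of the 8 bins at trnV passed in either direction. The median log2 ratio was -0.56 over the upstream bins, 0.06 at trnV and 0.99 in the spacer, while the median of all bins tested was -0.23. With libraries scaled by their median in place of their mean, the median of all bins in this contrast moved up by 0.32, and the counts became 34 lower and 28 higher.

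The highest ratio in the region lay at 100881 to 100890, in the middle of the spacer. The membrane libraries there had 2.74, 2.49 and 2.86 times the library mean and the stroma libraries 0.807, 0.985 and 0.843. Every membrane library was above every stroma library, and the log2 ratio was 1.57 ± 0.15 (SE, limma adjusted p = 1.55e-07). The lowest ratio lay at 99441 to 99450, with 0.45, 0.468 and 0.431 in membrane and 0.923, 1.12 and 1.18 in stroma. Here the order was the opposite, again with no overlap, and the log2 ratio was -1.16 ± 0.15 (SE, adjusted p = 6.47e-06). Libraries of the 2 fractions did not overlap in all 23 spacer bins, with membrane above, against 18.9% of all bins, and in 145 of the 170 upstream bins, with membrane below, against 52.6%.

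The spacer itself was not even. In the Col0 membrane, coverage was 3.04 ± 0.19 (SD, n = 3) at 100851 and 1.62 ± 0.17 at 100991, just before rrn16S. The stroma of Col0 ran between 0.787 ± 0.055, also at 100991, and 1.39 ± 0.12 over the whole spacer. The low point just before rrn16S was thus shared by both fractions. The membrane therefore held a local peak within the spacer that was separate from the plateau of rrn16S, whose mean was 3.18 ± 0.24 in membrane and 1.59 ± 0.17 in stroma. All 148 bins of rrn16S were called higher in membrane in this condition, with a median log2 ratio of 0.98, close to the median of the spacer.

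**Figure D2:**
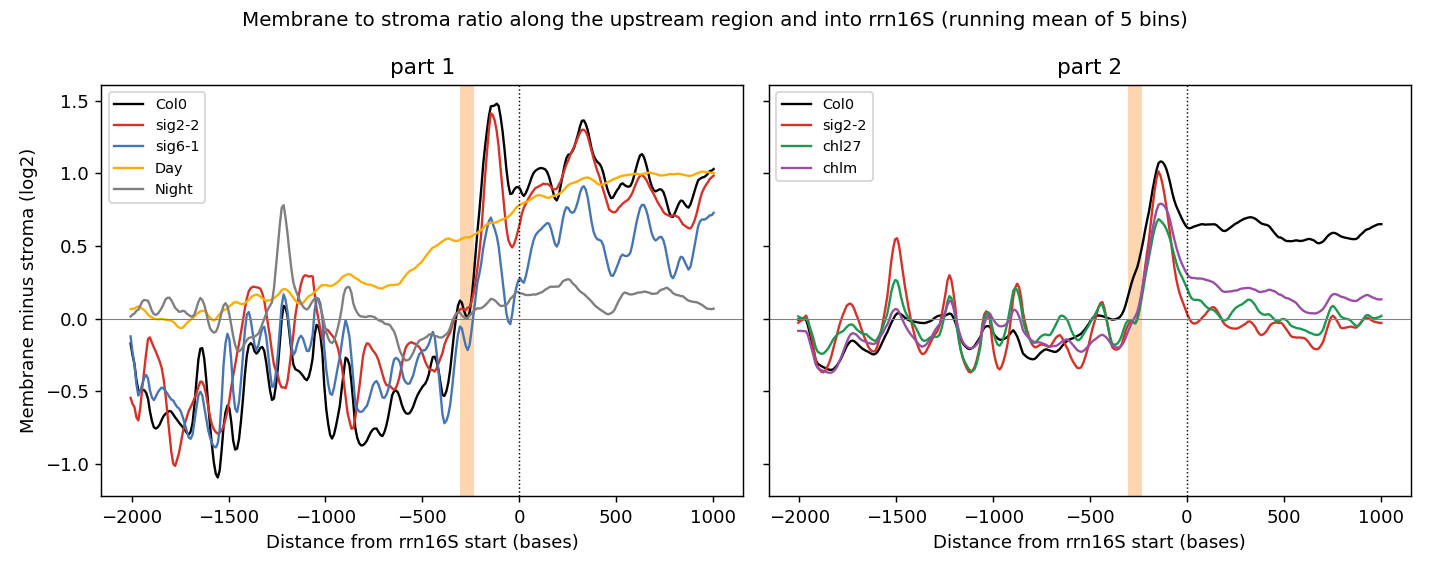
Membrane minus stroma log2 ratio (running mean of 5 bins of group means) against distance from the start of rrn16S in bases, in 1 panel per part, with 1 line per condition, trnV as an orange band and the rrn16S start dotted. In every seedling condition the line climbs beyond trnV to a peak within the spacer, while Day climbs slowly from far upstream and Night stays near 0 there.

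The sigma factor mutants of part 1 had the same order of segments with smaller ratios in the spacer. In sig2-2, spacer coverage was 2.14, 1.88 and 2.45 in the membrane libraries and 1.12, 1.13 and 1.26 in the stroma libraries. In sig6-1 it was 1.52, 1.55 and 1.62 in membrane and 1.21, 1.14 and 1.29 in stroma. The fractions did not overlap in either mutant, and the gap was narrowest in sig6-1. The median log2 ratio of the spacer bins was 0.66 in sig2-2 and 0.35 in sig6-1, and that of the upstream bins was -0.28 and -0.41.

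In sig2-2, 22 of 23 spacer bins passed as higher in membrane, from 100791 to 101010, and 61 upstream bins passed as lower, against backgrounds of 7.29% and 34%. Since 61 bins are 30.3% of the region, the share called lower was near the background. The highest ratio lay at 100861, with 3.13, 2.37 and 4.04 in membrane and 1.07, 1.01 and 1.26 in stroma. Membrane replicate 3 was the highest of these libraries and no library of one fraction reached the other; the log2 ratio was 1.45 ± 0.18 (SE, limma adjusted p = 2.7e-05). Without stroma replicate 1 the log2 ratio there was 1.42 (adjusted p = 0.000172) and the counts were 21 higher and 41 lower, and without membrane replicate 1 they were 21 and 27. Median scaling gave 37 higher and 8 lower. No bin passed when the spread was estimated from the sig2-2 libraries alone.

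In sig6-1, 11 of 23 spacer bins passed as higher, against 4.26% of all bins, and 80 upstream bins passed as lower, against 12.5%. The bins called higher formed a run of 9 from 100831 to 100920 and a pair next to rrn16S, from 100991 to 101010. The highest ratio lay at 100841, with 1.80, 1.73 and 2.14 in membrane and 1.05, 0.96 and 1.25 in stroma. The fractions did not overlap there, and the log2 ratio was 0.77 ± 0.16 (SE, limma adjusted p = 0.00195). In 3 of the 23 spacer bins the ratio was below 0, which occurred in no spacer bin of Col0 or sig2-2. These ratios were -0.12, -0.13 and -0.03, and none was called (limma adjusted p from 0.583 to 0.913). Under median scaling the running mean stayed above 0 there. Without membrane replicate 3 the counts were 7 higher and 52 lower, and median scaling gave 11 and 23. No bin passed with the spread of the sig6-1 libraries alone, where the adjusted p at 100841 was 0.0523.

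Part 2 gave a second set of seedlings. Spacer coverage in Col0 was 1.11, 1.36, 1.13 and 0.931 in membrane and 0.587, 0.699, 0.606 and 0.534 in stroma. In sig2-2 it was 0.981, 1.25, 1.11 and 0.877 in membrane and 0.722, 0.865, 0.672 and 0.62 in stroma. In each of these 2 conditions every membrane library lay above every stroma library. In chl27 it was 0.963, 1.21, 0.971 and 0.908 in membrane and 0.633, 0.951, 0.642 and 0.67 in stroma, so that stroma replicate 2 overlapped the membrane libraries. In chlm it was 1.01, 1.25, 1.02 and 0.888 in membrane and 0.698, 0.613 and 0.75 in the stroma libraries of replicates 2, 3 and 4, with no overlap.

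The level of the spacer differed between the parts. In part 2 the membrane spacer was near the library mean and the stroma spacer well below it, whereas in the seedlings of part 1 the stroma spacer was near the library mean and the membrane spacer above it. The lowest bin of the spacer in the stroma of part 2 was 0.523 ± 0.052 at 100901 in Col0, 0.506 ± 0.092 at 100851 in sig2-2, 0.63 ± 0.11 at 100881 in chl27 and 0.587 ± 0.07 at 100891 in chlm. These bins start between 161 and 111 bases before rrn16S. The part 2 membrane had 1.02 to 1.23 at its extremes in the Col0 spacer and no such notch. Since the parts differed in protocol, the levels were not compared by a test.

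By bin, 22 of 23 spacer bins and 1 bin at the end of trnV passed as higher in the Col0 membrane of part 2, from 100771 to 101000. These 23 bins compare with a background of 1.81%. Another 7 upstream bins passed as lower, against 1.63%. In sig2-2 the counts were 12 higher, from 100811 to 100930, and 7 lower, against 0.416% and 0.917%. In chl27, 9 spacer bins passed as higher, against 0.316%, and in chlm 11, against 0.917%. No bin of either passed as lower, with backgrounds of 0.2% and 0.509%. In all 4 conditions of part 2 the bins called higher were therefore a larger share of the region than of the genome, and all but 1 of them lay in the spacer.

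The highest ratios of part 2 fell in a pair of neighbouring bins. In Col0 the bin at 100861 had 1.22, 1.47, 1.25 and 0.977 in membrane and 0.504, 0.644, 0.529 and 0.509 in stroma, where the ratio on the log2 scale was 1.09 ± 0.16 (SE, limma adjusted p = 0.000117). The lowest membrane library was above the highest stroma library. In sig2-2 the bin at 100851 had 0.996, 1.32, 1.19 and 0.927 in membrane and 0.491, 0.626, 0.401 and 0.505 in stroma, again without overlap, and its log2 ratio was 1.06 ± 0.15 (adjusted p = 0.000164). In chl27 the highest ratio, at 100851, was 0.70 ± 0.15 (adjusted p = 0.0276), and in chlm, at 100861, it was 0.80 ± 0.17 (adjusted p = 0.0124).

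Same-numbered libraries of part 2 deviated together, and with the replicate as a block the counts were higher. Col0 then had 30 bins higher and 26 lower, sig2-2 had 32 and 48, chl27 had 22 and 6, and chlm had 19 and 0. The background was higher as well, with 24%, 33.5%, 10.1% and 4.16% of all bins in either direction. It is not given by direction. Without the block, 14.9% of the region in Col0 and 9.45% in sig2-2 were called, against 3.45% and 1.33% of all bins. In Col0 and sig2-2 the share of the region with the block was closer to its background. With the spread of the compared libraries alone, no bin passed in sig2-2, chl27 or chlm, while 21 bins passed as higher in Col0.

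Calls in chl27 depended on single libraries. None passed without membrane replicate 1, 2 or 3 or stroma replicate 1 or 3, and 5 and 3 passed without membrane replicate 4 and stroma replicate 4. Without stroma replicate 2, which stands apart, 13 passed as higher. In sig2-2, 13 passed as higher and none as lower without its stroma replicate 2, whereas 27 and 46 passed without stroma replicate 4. Leaving out any of membrane replicates 2, 3 and 4 or stroma replicates 1 and 3 gave 9 or 10 higher and at most 1 lower. In chlm, 5 passed as higher without stroma replicate 3, and in Col0, 19 passed as higher and none as lower without membrane replicate 2 or stroma replicate 4. No share of all bins is given beside these counts. They describe how calls varied with a library left out and do not set the region against the genome. Median scaling gave 22 higher and 2 lower in Col0 and 9 and 0 in sig2-2, and 3 higher in chl27.

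A run of 9 bins was called higher in membrane in all 7 seedling conditions of both parts. How many of all bins tested were called higher in all 7 was not counted. It spans 100831 to 100920, which is 181 to 92 bases before the start of rrn16S, and it was also called in Day. All 9 bins were still called in sig2-2 of part 1 without stroma replicate 1 and in sig2-2 and chl27 of part 2 without stroma replicate 2. Other left-out libraries broke the run. Median scaling broke it too, with fewer than 9 bins of the region called higher in chl27. With 1 library left out, the region's bins called higher ranged from 0 to 13 in chl27, 5 to 11 in chlm and 6 to 11 in sig6-1. With the spread of the compared libraries alone, no bin passed in sig2-2 or sig6-1 of part 1 or in the mutants of part 2. The landmark bin at 100901, the last but one of this run, shows the values in each condition. In Col0 of part 1 it had 2.75, 2.37 and 2.79 in membrane and 0.871, 1.04 and 0.887 in stroma, a log2 ratio of 1.45. In sig6-1 it had 1.47, 1.45 and 1.5 in membrane and 1.04, 0.936 and 1.09 in stroma, a log2 ratio of 0.51. The stroma libraries of the 2 genotypes overlapped at this bin, and the membrane libraries did not. At 100901 the part 2 log2 ratios were 1.06 for Col0 and 0.79 for sig2-2, and 0.63 for chl27 and 0.77 for chlm. Conditions within a part were not fitted separately, so these calls share 1 estimate of the spread.

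The ratio of spacer to upstream coverage within a library does not depend on how the library was scaled. In Col0 of part 1 it was 2.63, 2.41 and 2.75 in membrane and 0.774, 0.829 and 0.788 in stroma. In sig2-2 it was 2.21, 1.74 and 2.04 in membrane and 0.931, 0.917 and 0.948 in stroma, and in sig6-1 1.42, 1.43 and 1.56 in membrane and 0.888, 0.796 and 0.903 in stroma. The membrane values of these 3 genotypes formed separate ranges, highest in Col0 and lowest in sig6-1, while all stroma values were below 1. In part 2 the membrane libraries of all 4 genotypes lay between 0.835 and 1.32, with their ranges overlapping, and the stroma libraries between 0.46 and 0.735. Membrane and stroma libraries did not overlap in 8 of the 9 conditions, and they overlapped in Night.

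**Figure D3:**
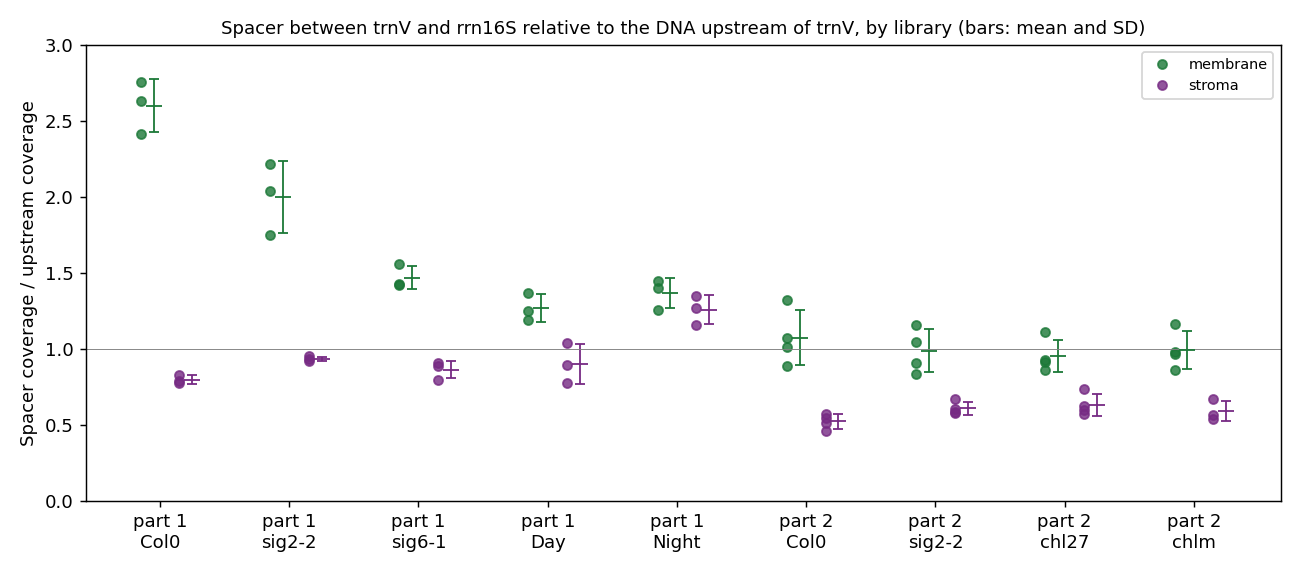
Mean coverage of the spacer divided by mean coverage upstream of trnV (linear axis from 0), 1 point per library, by condition, with the group mean and SD as bars beside the points. Membrane points lie above stroma points in every condition except Night, where 1.25 to 1.44 in membrane overlaps 1.15 to 1.34 in stroma.

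Leaves collected in the light had another profile. In Day, spacer coverage was 1.54, 1.52 and 1.46 in membrane and 0.978, 1.08 and 0.749 in stroma. Upstream coverage was 1.23, 1.11 and 1.23 in membrane and 1.10, 1.05 and 0.97 in stroma. Membrane was above stroma in both stretches, with no overlap between the fractions. By bin, 53 passed as higher in membrane, against 7.02%, and none as lower, against 6.62%. They were all 23 spacer bins, all 8 bins at trnV and 22 upstream bins, in runs from 100461 to 100570 and from 100591 to 101010.

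The Day ratio had little local structure. Its median log2 value was 0.17 upstream, 0.56 at trnV and 0.67 in the spacer, and it was highest in the last bin, at 101001, with 1.53, 1.54 and 1.48 in membrane and 0.905, 1.02 and 0.698 in stroma. The stroma libraries were all lower there, and the ratio was 0.78 ± 0.10 on the log2 scale (SE, limma adjusted p = 3.83e-05). Across the spacer the Day membrane stayed between 1.45 and 1.57 and the Day stroma between 0.857 and 0.982. The local membrane peak of the part 1 seedlings was not seen. The membrane spacer of part 2 seedlings also varied little. It ran from 0.949 to 1.06 in chl27, 0.967 to 1.10 in chlm, 0.942 to 1.11 in sig2-2 and 1.02 to 1.23 in Col0. The median Day log2 ratio over rrn16S was 0.99. Without stroma replicate 3, the lowest of its group in the spacer, 23 bins passed in place of 53.

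In Night no bin of the region passed in either direction, against backgrounds of 0.0694% and 0.0154%, and 15 bins had an unadjusted limma p under 0.05, against 11.8% of all bins. Mean coverage over the spacer was 1.73, 1.54 and 1.38 in membrane and 1.48, 1.49 and 1.32 in stroma, and these means overlapped. Both fractions were above the library mean in the spacer, and both had their highest spacer bin at 100861, with 1.89 ± 0.34 (SD, n = 3) in membrane and 1.69 ± 0.19 in stroma. The median log2 ratio was 0.02 upstream and 0.10 in the spacer, where the ratio was above 0 in all 23 bins. One bin passed as higher without stroma replicate 3, when 0.0694% of all bins were called in either direction.

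The place where the ratio changes was located in a pair of ways, both as descriptions. The turning position is the start of the final unbroken run of ratios above 0, on a running mean of 5 bins, and it depends on how libraries are scaled. For the step position, the 201 ratios are split into 2 segments, each of at least 10 bins, with the least spread around their means. The step is the start of the second segment, and scaling does not enter it apart from the small added constant.

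The step lay close to the border between trnV and the spacer in every seedling condition. In Col0 of part 1 it was at 100781, the first bin after trnV, where the mean log2 ratio changed from -0.49 before to 1.11 after. Taking each library against the mean of the other fraction gave steps of 100771 to 100781. In sig2-2 the step was at 100791, with a rise of 1.14, against 1.60 in Col0. In sig6-1 it was at 100771, the last bin of trnV, with a rise of 0.71. In part 2 it was at 100751 in Col0, inside trnV, and at 100781 in sig2-2, chl27 and chlm, with rises of 0.91, 0.64, 0.54 and 0.69. Single libraries gave steps between 100691 and 100821 over these 7 conditions. With 1 library left out at a time the step stayed between 100741 and 100801 in all of them. It was 100801 in sig2-2 of part 1 without stroma replicate 1 and 100781 in sig2-2 and chl27 of part 2 without stroma replicate 2. With bins of 50 bp it was at 100801 in Col0 of part 1 and in sig2-2, chl27 and chlm of part 2.

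The turning position came earlier in most conditions, because ratios crossed 0 before they reached their high level. It was 100681 in Col0 and sig2-2 of part 1, which is 331 bases before rrn16S, and 100971 in sig6-1, where the ratio dipped below 0 again within the spacer. In part 2 it was 100651 in Col0, 100761 in sig2-2 and chl27 and 100741 in chlm. Under median scaling it was 100761 in sig6-1, so the late position of sig6-1 depended on the scaling. Without membrane replicate 3 or stroma replicate 3 of sig6-1 it was 100781 and 100771. Without stroma replicate 1 it was 100771 in sig2-2 of part 1, and without stroma replicate 2 it was 100721 in sig2-2 and 100691 in chl27 of part 2.

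The leaf conditions did not share this step. In Day the step was at 100491, 521 bases before rrn16S, with a rise of 0.44, and single libraries spread from 100061 to 100541. The Day turning position was 99451, which moved to 99001, the first bin, under median scaling. In Night the split gave 99991 with means of 0.08 before and -0.02 after, and single libraries ranged from 99651 to 100771, so no step was located there. Without stroma replicate 3 the split stayed at 99991. The Night turning position was 100671, with a range of 100651 to 100921 when 1 library was left out.

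Conditions were then compared by the difference of their membrane to stroma ratios. All comparisons of seedlings share the Col0 libraries of their part. Between sig6-1 and Col0, 10 bins of the spacer passed as lower in sig6-1, against 0.578% of all bins, and none passed as higher. The 10 bins form 1 run from 100891 to 100990, which starts 121 bases before rrn16S. Mean coverage over them was 2.23, 2.03 and 2.38 in the Col0 membrane and 1.32, 1.43 and 1.27 in the sig6-1 membrane. In stroma it was 0.951, 1.00 and 0.996 in Col0 and 1.14, 1.17 and 1.27 in sig6-1. The membrane libraries of sig6-1 were all lower and its stroma libraries all higher than those of Col0, with no overlap in either fraction. These bins were picked by this same comparison, so the separation describes them and gives it no further support. Over the whole spacer, stroma coverage reached 1.131 in Col0 and began at 1.138 in sig6-1. The sig2-2 libraries had 1.92, 1.80 and 2.27 in membrane and 1.09, 1.10 and 1.24 in stroma over the same bins.

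The largest of these differences was at 100921 to 100930. Col0 had 2.50, 2.27 and 2.59 in membrane and 0.93, 0.956 and 0.892 in stroma, and sig6-1 had 1.34, 1.42 and 1.27 in membrane and 1.13, 1.08 and 1.13 in stroma. The groups did not overlap, and the difference of log2 ratios was -1.10 ± 0.16 (SE, limma adjusted p = 0.000425). Between 5 and 10 bins passed when any 1 library was left out, with 5 without Col0 stroma replicate 1 and 6 without Col0 membrane replicate 3 or sig6-1 stroma replicate 3. With the libraries of these 2 conditions alone 11 passed.

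**Figure D4:**
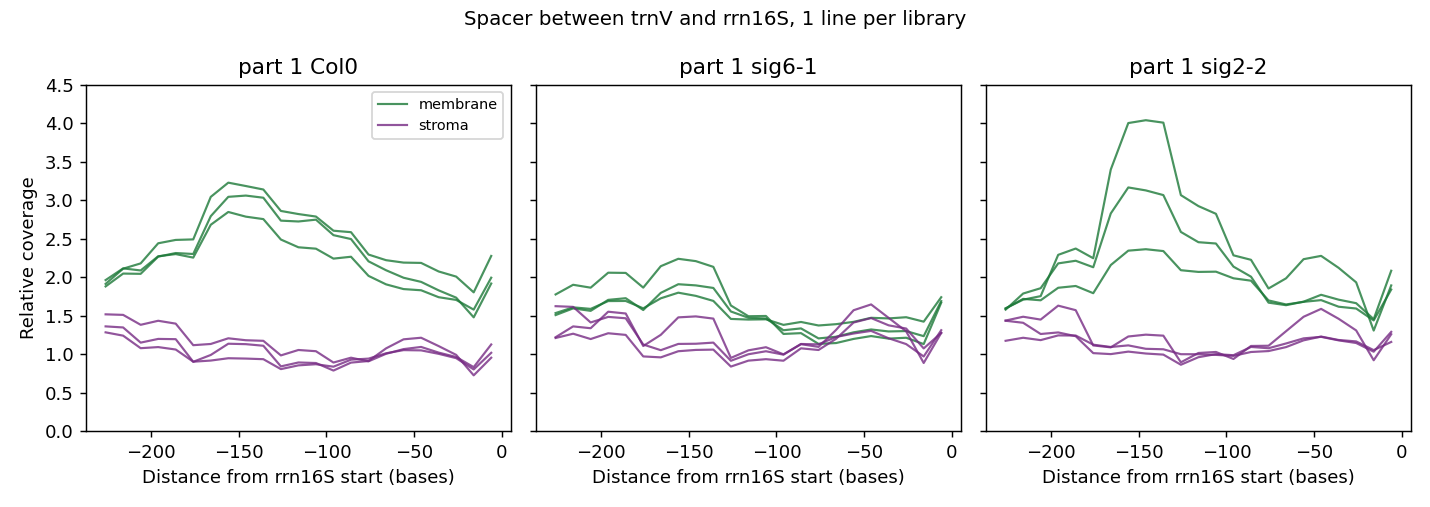
Relative coverage (linear axis from 0) of the 23 spacer bins against distance from the start of rrn16S in bases, 1 line per library, for Col0, sig6-1 and sig2-2 of part 1. Membrane lines of Col0 stay above all stroma lines along the whole spacer, and those of sig6-1 meet its stroma lines in the second part of the spacer.

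Between sig2-2 and Col0 no bin of the region passed in part 1, against 0.0463% higher and 1% lower of all bins, and 63 bins had an unadjusted limma p under 0.05, against 18.9% of all bins. The spacer median of the difference was -0.31 and that of the upstream bins 0.29. Leaving out sig2-2 stroma replicate 3 gave 46 bins called higher and 2 lower, when 13.1% of all bins were called. Leaving out its membrane replicates 1 and 2 gave 6 and 3 higher, when 0.825% and 3.28% of all bins were called, and leaving out its stroma replicate 1 gave none. In part 2 no bin passed in this difference either, against 0% higher and 0.108% lower, and the spacer median was -0.26. An unadjusted limma p under 0.05 was found for 24 bins, against 6.27% of all bins. Without sig2-2 stroma replicate 2 no bin passed. With the replicate block, 6 passed as higher and 10 as lower, against 11.3% of all bins in either direction.

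For chl27 and chlm against Col0 of part 2, no bin of the region passed in limma, and none passed in the whole genome, 0% in each direction. Unadjusted p-values under 0.05 were found for 15 bins in chl27 and 2 in chlm, against 1.4% and 0.663% of all bins. Without chl27 stroma replicate 2 no bin passed in its difference either. The spacer median of the difference was -0.38 in chl27 and -0.29 in chlm, and the difference was below 0 in all 23 spacer bins of both. At 100891, the lowest bin of chl27, it was -0.44 ± 0.20 (SE, adjusted p = 0.72), which does not show that the genotypes act alike.

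Between Night and Day, 11 bins passed as lower in Night, against 1.46%, and none as higher, against 0.177%. Of these, 8 lay upstream of trnV and 3 in the spacer. The largest difference, at 100631, did not pass, with -0.69 ± 0.23 (SE, limma adjusted p = 0.111). This count ranged from 0 to 32 with 1 library left out and was 0 under median scaling and with the libraries of these 2 conditions alone. It was 32 without Day stroma replicate 2, 7 and 6 without Night membrane replicates 2 and 1, 11 without Night stroma replicate 3 and 0 without any other library of these groups.

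Day leaves and Col0 seedlings of part 1 differ in age, tissue, growth medium and light regime at once, which cannot be told apart. Of the 201 bins, 85 passed as higher in Day, all upstream of trnV, against 3.06%, and 6 as lower, all in the spacer, against 1.21%. At 100191 the Col0 libraries had 0.697, 0.785 and 0.786 in membrane and 1.34, 1.60 and 1.42 in stroma. The Day libraries had 1.24, 1.08 and 1.25 in membrane and 1.06, 0.987 and 0.913 in stroma. The order of the fractions was opposite, and the difference of log2 ratios was 1.15 ± 0.19 (SE, limma adjusted p = 0.00124). At 100881, the bin with the highest ratio in Col0, the difference was -0.91 ± 0.21 (SE, adjusted p = 0.0141). Median scaling gave 25 higher and 4 lower, and the libraries of these 2 conditions alone gave 147 and 11.

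Set beside rrn16S, the spacer of part 2 differed in which conditions passed. In the mutants of part 2 none of the 148 bins of rrn16S passed, and their median log2 ratio was -0.05 in sig2-2, 0.01 in chl27 and 0.16 in chlm. The spacer medians of the same conditions were 0.52, 0.45 and 0.55. Coverage of rrn16S was 1.21, 1.85, 1.19 and 0.704 in the sig2-2 membrane and 1.24, 2.00, 1.24 and 0.742 in its stroma, nearly equal for each replicate number. In Col0 of part 2 the rrn16S median was 0.62, and no bin of it passed either. In part 1 the rrn16S bins passed in all 148 in Col0, sig2-2 and Day, in 86 in sig6-1 and in none in Night, and in 132 in sig2-2 without stroma replicate 1. The difference between spacer and rrn16S was not tested.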

How the data were processed

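As the authors deposited it, each library is 1 column of whole-number coverage, a depth signal for every base of the plastid genome. The submitters' processing notes name Trim Galore 0.4.1, Bowtie2, bedtools 2.25.0 and TAIR10. How reads shared by both repeat copies were placed, and whether duplicates were removed, is not given in the sources used here. Gene positions came from a TAIR10.1 gene table. The mirror axis of the repeat was 238649 both from its 15 mirrored gene pairs and from the coverage, so row number was taken as position. Position labels of part 2 ran 1 lower than the row number. The column of chlm stroma replicate 1 in part 2 holds running positions and was left out. The second repeat copy, 129565 to 154312, was left out of the tests but kept in the library mean.

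Bins of 10 bp were averaged, divided by the library mean over all bins and taken as log2 with 0.05 added. limma 3.58.1 (lmFit, contrasts, eBayes, two-sided) in R 4.3.3 was fitted per part with 1 mean per group over 12971 bins, with Benjamini-Hochberg adjustment within each contrast and a threshold of 0.05. The script was tested on simulated data. Tables and figures came from matplotlib 3.10.9, pandas 2.3.3 and numpy 2.4.6 in Python 3.11.15. The tests comprised 9 membrane minus stroma contrasts and 7 differences between conditions. Bins named were fixed landmarks (the first and last bin, the middle of trnV, and those at 99501, 100001, 100501 and 100901) and the highest and lowest ratio of each contrast. Of the other bins, those at the spacer extremes of a group and those ending a run of calls were named after their values were seen. The region, bins and lists were chosen with earlier results of these data known.

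Same-numbered libraries were taken as paired where every correlation of their deviations from the group means was over 0.1. This held in part 2, from 0.16 upwards in every condition, and in sig6-1 and Day of part 1. It did not hold in Col0, sig2-2 and Night of part 1. Alternatives were median scaling, 0.5 added in place of 0.05, bins of 50 bp, the replicate block, only the libraries compared, and each library left out. Read length is not given, so coverage was not turned into fragment counts and no counting interval was computed. A planned search for promoter motifs was not run, since no plastid sequence was used here.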

Additional observations from a re-analysis of the deposited data

Results flagged for a closer look

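In the 7 groups with 4 libraries, 70 values of named bins and stretches were checked, and 1 library lay far from the others in 8 of them, where chance gives about 5%. The values of a group are not independent, since the bin at 100741 lies within trnV and all come from the same libraries. Replicate 2 was the highest library in 7 of them. In the Col0 membrane of part 2 it had 1.27 at 100741, in the middle of trnV, against 1.01 to 1.04, and 1.23 over the whole of trnV against 1.01 to 1.03. In the chl27 stroma it had 1.34 at 100741 against 0.870 to 0.911, 1.18 over trnV against 0.856 to 0.911, and 0.951 over the spacer against 0.633 to 0.670. In the sig2-2 stroma of part 2 it had 1.12 at 100741 against 0.904 to 0.929. In the chlm membrane replicate 2 had 1.08 upstream of trnV against 1.04 in each of the others. The remaining case was the Col0 membrane of part 2 at 99001, where replicate 4 had 0.992 against 1.13 to 1.15.

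Tested differences between conditions of part 1 stood out in 3 comparisons. Between sig6-1 and Col0, 10 bins passed, against 0.578% of all bins, with a difference of -1.10 at 100921. Between Day and Col0, 91 bins passed, against 4.27% of all bins, with 1.15 at 100191 and -0.91 at 100881. Between Night and Day, 11 bins passed, against 1.63% of all bins. That last count ranged from 0 to 32 with 1 library left out. No bin passed in it under median scaling or with only the libraries compared.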

How the results depend on the processing

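Percentages are shares of the region's bins called in either direction, and values in brackets are the shares of all bins. With median scaling they were 30.8% (24.3%) in Col0, 22.4% (21.6%) in sig2-2 and 16.9% (11.3%) in sig6-1 of part 1, 4.48% (1.06%) in sig2-2 and 1.49% (0.54%) in chl27 of part 2, 0% (0%) for Night minus Day and 14.4% (2.63%) for Day minus Col0. Median scaling moved the median of all bins up by 0.32, 0.35, 0.15 and 0.12 on the log2 scale in Col0, sig2-2, sig6-1 and Day of part 1. With only the libraries compared they were 0% in sig2-2 and sig6-1 of part 1, in sig2-2, chl27 and chlm of part 2 and for Night minus Day, with 0% of all bins in each, and 78.6% (27.6%) for Day minus Col0. With the replicate block they were 19.9% (8.26%) for sig2-2 minus Col0 and 19.4% (6.45%) for Night minus Day of part 1, in which pairing did not hold for every group, and 27.9% (24%) in Col0, 39.8% (33.5%) in sig2-2, 13.9% (10.1%) in chl27, 9.45% (4.16%) in chlm and 7.96% (11.3%) for sig2-2 minus Col0 of part 2. The block moved no other count by more than 1.5 times. Adding 0.5 gave 0.995% (1.13%) for Night minus Day, and bins of 50 bp gave 12.5% (2.66%) for Night minus Day and 2.5% (0.617%) in chl27. In all, 56 of 80 such counts stayed within 1.5 times the reported count.

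With 1 library left out, the share ranged from 23.9% to 58.2% in sig2-2, 29.4% to 42.8% in sig6-1, 11.4% to 25.9% in Day, 0% to 0.498% in Night, 0% to 23.9% for sig2-2 minus Col0, 2.49% to 4.98% for sig6-1 minus Col0 and 0% to 15.9% for Night minus Day of part 1. In part 2 it ranged from 9.45% to 13.4% in Col0, 4.48% to 36.3% in sig2-2, 0% to 6.47% in chl27 and 2.49% to 5.47% in chlm. Shares of all bins are not given for these ranges.

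The turning position moved under median scaling to 100581 in sig2-2, 100761 in sig6-1 and 99001 in Day of part 1 and 100501 in Col0 of part 2, and with bins of 50 bp to 100751 in sig6-1. The step moved with bins of 50 bp to 100801 in Col0 of part 1 and in sig2-2, chl27 and chlm of part 2. With 1 library left out, the turning position ranged from 100681 to 100761 in Col0, 100631 to 100771 in sig2-2, 100771 to 100981 in sig6-1, 99271 to 99901 in Day and 100651 to 100921 in Night of part 1. In part 2 it ranged from 100501 to 100671 in Col0, 100721 to 100761 in sig2-2 and 100691 to 100771 in chl27. In sig2-2 of part 2, leaving out membrane replicate 2 or stroma replicate 4 gave no turning position, since the last bin was not above 0. The step ranged from 99991 to 100771 in Night.

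Of 94 named bin ratios, 10 changed sign under median scaling, none of them called. They became 0.31 at 99001 and 0.29 at 100741 in Col0, 0.36 at 100001 and 0.17 at 100501 in sig2-2, 0.031 at 99261 in Day, and 0.063 at 99001, 0.039 at 100001 and 0.077 at 100741 in Night of part 1, and 0.036 at 99001 and 0.015 at 100501 in Col0 of part 2. With 1 library left out, 23 uncalled ratios crossed 0. In Col0 of part 1 the ranges were -0.16 to 0.060 at 99001, -0.15 to 0.011 at 100741. In sig2-2 of part 1 the ranges were -0.048 to 0.053 at 100001, -0.16 to 0.23 at 100741. In sig6-1 of part 1 the ranges were -0.15 to 0.17 at 99001. In Day of part 1 the ranges were -0.011 to 0.10 at 99001, -0.0042 to 0.15 at 99501. In Night of part 1 the ranges were -0.13 to 0.041 at 99001, -0.014 to 0.33 at 99501, -0.20 to 0.11 at 100001, -0.17 to 0.15 at 100741, -0.019 to 0.22 at 100901. In Col0 of part 2 the ranges were -0.033 to 0.045 at 99001, -0.033 to 0.12 at 99501, -0.073 to 0.0080 at 100501. In sig2-2 of part 2 the ranges were -0.095 to 0.036 at 100741, -0.11 to 0.19 at 101001. In chl27 of part 2 the ranges were -0.021 to 0.057 at 99001, -0.10 to 0.0044 at 100001, -0.10 to 0.093 at 100741. In chlm of part 2 the ranges were -0.074 to 0.28 at 99501, -0.0095 to 0.046 at 100001, -0.052 to 0.085 at 100741. The causes of these changes were not tested. All other named ratios kept their sign under every alternative run. Depth limits the troughs of part 1 most, where the lowest base had a depth of 7.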
